A study of Homo sapiens with 6 samples.

Results

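The enzymes of de novo purine nucleotide synthesis were followed in Kasumi-1, a human acute myeloid leukaemia line with the t(8;21) translocation. The members were PPAT, GART, PFAS, PAICS, ADSL, ATIC, IMPDH1, IMPDH2, GMPS and ADSS2, and every probe set annotated to one of these symbols alone was taken. That gave 24 probe sets for 9 of the 10 genes. ADSS2 was not analysed here, because the annotation used names no probe set for it. The 3 treated samples had received 20 nM homoharringtonine (HHT), a plant alkaloid that blocks translation elongation, for 24 h, and the 3 control samples had received vehicle for 24 h. Both groups were the same line in the same culture medium, and the labels neither name the vehicle nor tell if replicates were cultured apart. The p-values therefore cover the spread among these arrays only, and part or all of it may be technical.

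Cells build purines on a ribose phosphate from glutamine, glycine, aspartate, bicarbonate and folate-borne formyl groups. The common trunk, from PPAT to ATIC, ends at inosine monophosphate (IMP). From there IMPDH and GMPS make GMP, and ADSS and ADSL make AMP. Proliferating blood cells draw heavily on this route, which antimetabolites used in leukaemia target, and MYC is known from other cell systems to activate several of its genes.

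Signals are on the log2 scale, 1 value per probe set and array. Of the 54613 probe sets that are not controls, the 32768 with the highest means were tested, and a change was called at a Benjamini-Hochberg adjusted p under 0.05 over all of them in limma. Each gene is represented by its brightest probe set. MYC, the gene in the title of the series, had 9.53, 9.75 and 9.97 on the HHT arrays, against 14.15, 14.14 and 14.16 on the vehicle arrays. All 6 annotated markers of the line that had a probe set (KIT, CD34, MPO, RUNX1T1, ANPEP and PTPRC) passed the filter, with means of 7.39 to 14.22 in HHT and 7.70 to 14.83 in vehicle. Of these 6, MPO (-1.76), CD34 (-1.18) and KIT (-0.62) fell, PTPRC rose by 0.77, and RUNX1T1 and ANPEP were not called. CD33 had no probe set of its own. Of 15 markers of T, B, erythroid, epithelial and fibroblast cells, 9 passed the filter, 2 of these fell and none rose, with means of 4.94 to 12.93 in HHT and 5.36 to 13.69 in vehicle. The brightest were EPCAM, at 12.93 in HHT and 13.69 in vehicle, and CD3D, at 11.76 in HHT and 11.62 in vehicle. Their part in the results was not tested. Beside these counts of markers, 24.2% of all genes tested were called lower and 29.6% higher. Spiked-in hybridisation transcripts, read by 18 control probe sets, averaged 11.70 ± 0.06 in HHT and 11.98 ± 0.03 in vehicle (SD, n = 3 each). The sample titles number the vehicle samples before the HHT samples. If the arrays were run in that order, an effect of array order and one of HHT cannot be told apart. For the enzymes, a change is also given with these controls made equal where that alters its call. Calls of markers and connected genes are as deposited unless stated.

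Of the 9 measured enzymes, 6 fell, 0 rose and 3 were not called (limma, adjusted p under 0.05). At an unadjusted p under 0.05, 7 were lower and 0 higher, beside 3730 lower and 4344 higher of all 13572 genes tested. The 6 are PFAS, GART, PAICS, PPAT, ADSL and GMPS, and the 3 are IMPDH2, IMPDH1 and ATIC. Over all 13572 genes tested, 24.2% were called lower and 29.6% higher, 53.8% together. The median change of the 9 enzymes was -0.69, beside -4.15e-05 for all genes. For the 6 enzymes that fell, all 3 HHT arrays lay below all 3 vehicle arrays, an arrangement found in 29.0% of all genes, with the opposite one in 33.2%. A fall of at least 1 on the log2 scale was called for 3 of the 9, beside 5.94% of all genes. The falls were not equal along the route: the deepest were at PFAS and GART, which act after PPAT in the trunk. In RNA from whole cultures, fewer cells that express a gene and less transcript per cell cannot be told apart.

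**Figure D1:**
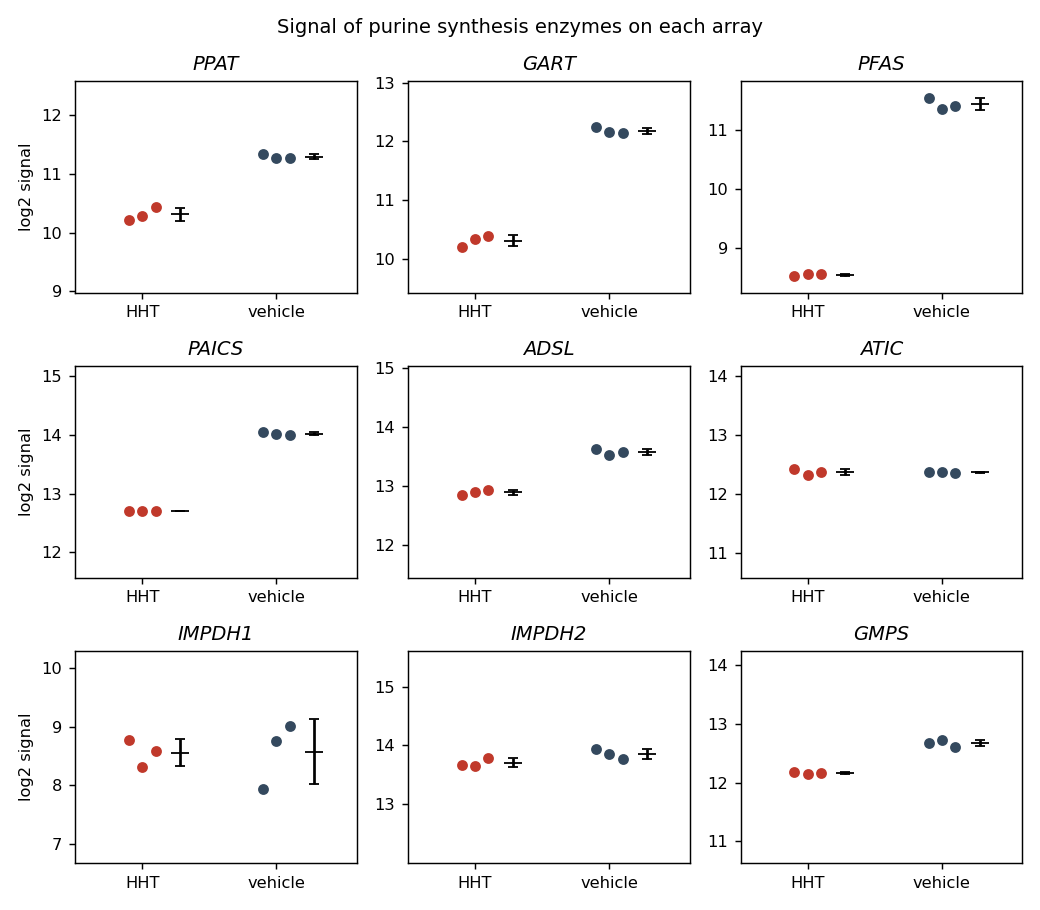
Log2 signal (y axis, the same span in every panel) of the brightest probe set of each enzyme on the 3 HHT arrays (red) and the 3 vehicle arrays (dark), with the mean and SD of each group to the right. The groups are apart for 6 enzymes, farthest for PFAS, and overlap for ATIC, IMPDH1 and IMPDH2.

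PPAT transfers an amide from glutamine to phosphoribosyl pyrophosphate (PRPP), the committed and feedback-controlled step. Its signal was 10.22, 10.28 and 10.43 in HHT, against 11.34, 11.27 and 11.27 in vehicle. It fell by 0.98 (SE 0.077, adjusted p = 2.45e-06 in limma), which is 1.98-fold lower. Of its other probe sets, 209433_s_at fell by 0.53 (SE 0.14, adjusted p = 0.0089). This dimmer one held 9.86, 10.22 and 10.43 in HHT, against 10.70, 10.53 and 10.86 in vehicle, so its groups were apart but close. Its call was lost when array medians were made equal (-0.29, adjusted p = 0.223), when hybridisation controls were (-0.24, adjusted p = 0.122) and without a variance trend (adjusted p = 0.062). The dimmest, 235833_at, differed by -0.11 with overlapping groups (SE 0.32, adjusted p = 0.798).

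PAICS, a bifunctional enzyme of the later trunk that adds the carboxyl group and then aspartate, is the neighbour of PPAT on chromosome 4. The genes are read in opposite directions. Of 3 annotated PAICS starts, the nearest lies 137 bases from the PPAT start, and the others lie farther away. The brightest PAICS probe set had 12.70, 12.71 and 12.70 in HHT, against 14.04, 14.02 and 14.00 in vehicle. The replicates of each group lay within a few hundredths of each other, and the groups were far apart. PAICS fell by 1.31 (SE 0.047, adjusted p = 2.70e-08 in limma), a 2.49-fold lower signal. Of its 2 other probe sets, 201014_s_at fell by 1.39 (SE 0.070), nearly the same size. The third, 214664_at, fell by 1.46 (SE 0.33) but is dim, with means of 5.59 in HHT and 7.05 in vehicle. Its 95% interval ran from -2.19 to -0.73, and its change was -0.82 with a pseudocount of 64, so its size is loosely set.

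The falls of the genes that share this region were compared within arrays. The within-array difference PPAT minus PAICS was -2.48, -2.43 and -2.27 in HHT, against -2.70, -2.75 and -2.73 in vehicle. The groups did not overlap, and the mean fall of PPAT was smaller by 0.33, a difference that was not called (exact permutation p = 0.1, two-sided, the smallest that 3 against 3 arrays allow, and 0.2 adjusted over the 2 enzyme pairs compared). Taking the mean of each gene's probe sets, the difference was 0.85. That mean puts PPAT at -0.54 and includes its dim probe set 235833_at (-0.11, SE 0.32, groups overlapping).

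The shared region is shown with the windows of PFAS, the enzyme that fell most, and of ATIC, which was not called. Each is a RefSeq window on GRCh38.p14 from 250 bases before to 50 after the annotated start, 5′ to 3′ along the gene. Capitals mark CACGTG, the E-box bound by MYC with MAX, which reads the same on both strands, or CACGCG on either strand, a weaker variant. The windows lie at chr4:56435566-56435865 on the minus strand for PPAT, at chr17:8249039-8249338 on the plus strand for PFAS and at chr2:215311809-215312108 on the plus strand for ATIC.
PPAT: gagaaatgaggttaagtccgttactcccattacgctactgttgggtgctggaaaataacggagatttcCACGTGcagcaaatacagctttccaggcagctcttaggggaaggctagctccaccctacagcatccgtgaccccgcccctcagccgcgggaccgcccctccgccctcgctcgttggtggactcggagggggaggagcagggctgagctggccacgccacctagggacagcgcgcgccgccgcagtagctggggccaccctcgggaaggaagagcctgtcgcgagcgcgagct
PFAS: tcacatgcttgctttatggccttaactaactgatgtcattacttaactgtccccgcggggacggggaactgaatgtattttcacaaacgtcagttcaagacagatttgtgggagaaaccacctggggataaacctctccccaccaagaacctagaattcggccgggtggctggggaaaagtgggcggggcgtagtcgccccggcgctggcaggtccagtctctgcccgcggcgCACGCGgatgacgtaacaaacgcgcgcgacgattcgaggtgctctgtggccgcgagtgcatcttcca
ATIC: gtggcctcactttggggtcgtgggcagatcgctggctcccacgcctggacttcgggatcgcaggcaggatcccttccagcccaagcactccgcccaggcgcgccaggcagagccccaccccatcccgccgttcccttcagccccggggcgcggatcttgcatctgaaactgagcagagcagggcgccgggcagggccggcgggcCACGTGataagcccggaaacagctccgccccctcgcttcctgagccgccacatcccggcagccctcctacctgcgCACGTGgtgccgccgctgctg
The PPAT window holds 1 CACGTG that begins 182 bases before the PPAT start. One of the 3 PAICS windows overlaps the PPAT window by 236 bases, and the same 6 letters lie there 40 bases after that PAICS start. ATIC holds CACGTG at 46 bases before and 29 bases after its start. PFAS holds no CACGTG and 1 CACGCG, 17 bases before its start. Among the windows of the other enzymes, CACGCG lay only in 1 of ADSS2, which was not measured, 190 bases before that start. Of 35116 windows of this kind, 7.26% held CACGTG and 11.4% held CACGCG on either strand. Windows of 8 of the 10 enzymes were available, for 13 starts. CACGTG lay in 3 of these 13 windows, 1 each for PPAT, PAICS and ATIC, and the PPAT and PAICS matches are 1 genomic site. Among the enzymes that fell, PPAT and PAICS held it, and PFAS, GART and GMPS did not. Of those not called, ATIC held it and IMPDH1 did not. No window was available for ADSL, which fell, or for IMPDH2. Whether the motif bears on any change was not tested. A match in these letters is a description of the window and not of binding.

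GART carries out several steps of the early and middle trunk in a trifunctional protein, and the formyl transfers of the route are done by GART and ATIC. The brightest GART probe set had 10.21, 10.34 and 10.39 in HHT, against 12.24, 12.15 and 12.14 in vehicle. GART fell by 1.87 (SE 0.071, adjusted p = 3.45e-08 in limma), a 3.64-fold lower signal, and only 0.928% of all genes had a lower change. It has 9 probe sets, the most of any of the enzymes, and 8 passed the filter on low values. Of these, 7 fell and 1 was not called (244822_at, -0.53, SE 0.34, adjusted p = 0.237).

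The GART probe sets differed in the size of the fall. Probe set 210005_at read 7.93, 8.08 and 7.68 in HHT, against 9.80, 10.11 and 10.20 in vehicle, and fell by 2.14 (SE 0.14). Probe set 230766_at read 8.89, 8.96 and 8.91 in HHT, against 9.76, 9.81 and 9.62 in vehicle, and fell by 0.81 (SE 0.095). The within-array difference between 230766_at and the brightest probe set was -1.32, -1.38 and -1.48 in HHT, against -2.48, -2.34 and -2.52 in vehicle. The groups are apart by 1.05 on average, and since the pair was picked after the values were seen no test is given. GART is known to give a short transcript, ended within an intron, that encodes its first domain only; the files do not say which transcript each probe set reads. The ninth probe set, 216990_at, lay below the filter, with means of 2.27 in HHT and 3.83 in vehicle.

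PFAS, the amidotransferase that converts the formylated intermediate with glutamine, had the largest fall of the 9 enzymes. It read 8.52, 8.55 and 8.55 in HHT, against 11.55, 11.35 and 11.41 in vehicle. PFAS fell by 2.90 (SE 0.083, adjusted p = 1.04e-08 in limma), a 7.46-fold lower signal, with a 95% interval from -3.08 to -2.71. Only 0.111% of all genes tested had a lower change. PFAS has a single probe set, so no second measurement on the array bears on this value.

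ADSL, a lyase that acts both late in the trunk and in the last step to AMP, had 12.85, 12.90 and 12.94 in HHT, against 13.63, 13.53 and 13.58 in vehicle. It fell by 0.69 (SE 0.053, adjusted p = 2.31e-06 in limma), and its second probe set fell by 0.82 (SE 0.11). Both probe sets had all HHT arrays below all vehicle arrays. The size of the ADSL fall depended on scaling: it was -0.45 at equal medians, -0.40 at equal hybridisation controls and -0.43 after quantile normalization, and each of these was called.

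ATIC, the bifunctional enzyme that adds the last formyl group and closes the ring to IMP, read 12.43, 12.32 and 12.37 in HHT, against 12.37, 12.38 and 12.35 in vehicle. The groups overlapped, and the difference of 0.01 was not called (SE 0.055, adjusted p = 0.936 in limma). Its 95% interval ran from -0.12 to 0.13, so a change of the size seen in ADSL lies outside it as scaled by the depositors. With equal hybridisation controls ATIC was called higher, at 0.29 (adjusted p = 0.00529), where the median of all genes was 0.28.

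On the branch to GMP, IMPDH oxidises IMP in the step that limits guanine nucleotide supply and that mycophenolic acid blocks. IMPDH2, the isoenzyme known to be induced in dividing cells, read 13.67, 13.66 and 13.79 in HHT, against 13.95, 13.86 and 13.78 in vehicle. These groups overlapped through the highest HHT and the lowest vehicle array, and the difference of -0.15 was not called (SE 0.060, adjusted p = 0.0584 in limma). It is close to the threshold and changed with the setting. IMPDH2 was called lower without HHT replicate 3 (-0.20, adjusted p = 0.038), without vehicle replicate 3 (-0.20, adjusted p = 0.0294), with array weights (-0.16, adjusted p = 0.042) and with the 60% filter (adjusted p = 0.0481). It was called higher after quantile normalization (0.20, adjusted p = 0.00408), and its sign turned, without a call, when medians or hybridisation controls were made equal. No direction can be given for it.

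IMPDH1, the isoenzyme regarded as constitutive in many tissues, was measured with far more spread. It read 8.78, 8.32 and 8.58 in HHT, against 7.95, 8.76 and 9.02 in vehicle. The 3 vehicle arrays enclose all HHT arrays, and the difference of -0.02 had a 95% interval from -0.56 to 0.52 (SE 0.24, adjusted p = 0.96 in limma), so changes as large as those of GMPS were not detectable for this probe set. The within-array difference IMPDH1 minus IMPDH2 was -4.90, -5.34 and -5.21 in HHT, against -6.00, -5.10 and -4.76 in vehicle. Its change of 0.14 was within the spread of the vehicle arrays (exact permutation p = 0.9, two-sided) and turned to -0.22 without vehicle replicate 1.

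GMPS, the amidotransferase that makes GMP from XMP, had 12.17, 12.15 and 12.16 in HHT, against 12.68, 12.72 and 12.61 in vehicle. It fell by 0.51 (SE 0.055, adjusted p = 2.39e-05 in limma), the smallest called fall of a representative probe set, and was still called after rescaling to equal medians, at -0.27 (adjusted p = 0.0403), or to equal hybridisation controls, at -0.23 (adjusted p = 0.0202). A second probe set, 229333_at, fell by 0.70 (SE 0.065). The third went the other way. Probe set 236648_at read 9.72, 9.71 and 9.58 in HHT, against 9.16, 9.28 and 9.35 in vehicle, and rose by 0.41 (SE 0.095, adjusted p = 0.0046). It was the only one of the 23 tested probe sets of these enzymes that rose. The within-array difference between it and the brightest GMPS probe set was -2.45, -2.43 and -2.58 in HHT, against -3.53, -3.44 and -3.27 in vehicle, a gap of 0.92 between the group means with no overlap and, as a pair picked after the values were seen, no test. With the mean of all 3 probe sets GMPS was at -0.27.

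Counted over probe sets, 17 of the 23 fell, 1 rose and 5 were not called, beside 23.3% of all tested probe sets called lower and 23.0% higher. Probe sets of 1 gene share its transcripts and are not independent.

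**Figure D2:**
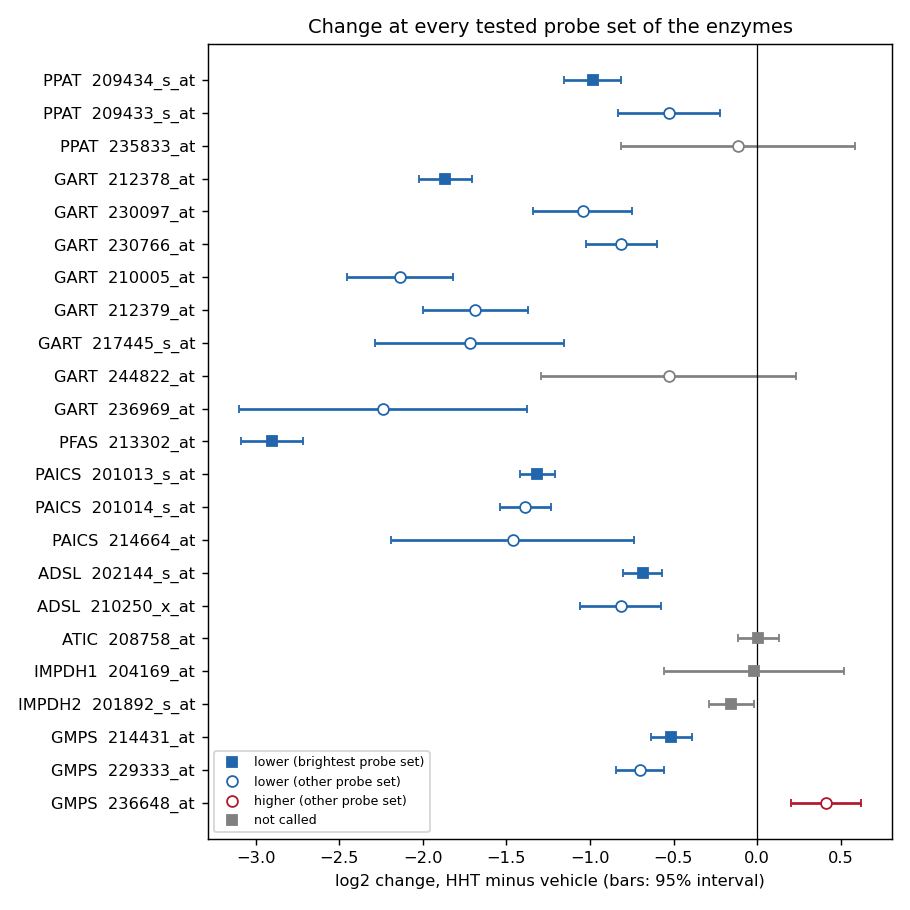
Log2 change, HHT minus vehicle (x axis), with its 95% interval, for each of the 23 tested probe sets, by gene in the order of the pathway. Filled squares are the brightest probe set of each gene, open circles the others, and colour gives the call; the 3 PAICS values lie together, the 8 GART values spread from -2.24 to -0.53, and 1 GMPS probe set lies above 0.

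Ordered by size, the changes ran from PFAS (-2.90) through GART (-1.87), PAICS (-1.31), PPAT (-0.98), ADSL (-0.69) and GMPS (-0.51) to IMPDH2 (-0.15), IMPDH1 (-0.02) and ATIC (0.01). For each pair of neighbours from PFAS down to IMPDH2, the within-array differences in HHT did not overlap with those in vehicle. They overlapped between IMPDH2 and IMPDH1 and between IMPDH1 and ATIC. Since the order was read from the same values, this is a description of the arrays and no test. The largest step lay between PFAS and GART, where PFAS minus GART was -1.69, -1.79 and -1.84 in HHT, against -0.69, -0.80 and -0.72 in vehicle.

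The scaling of the arrays shifted all 9 enzymes but left the calls of the 6 that fell in place. Made equal in their medians, the arrays gave a median change over all genes of 0.24 and 12.7% of genes called lower. Made equal in their hybridisation controls, they gave 0.28 and 12.8%. Over all genes the calls were then 5062 higher and 1720 lower with equal medians, and 5640 higher and 1741 lower with equal hybridisation controls, beside 4017 higher and 3280 lower as deposited. Under either scaling, and also with quantile normalization (22.9% of all genes lower), 6 of the 9 enzymes were called lower. PFAS stayed between -2.95 and -2.62 and GART between -1.90 and -1.58.

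**Figure D3:**
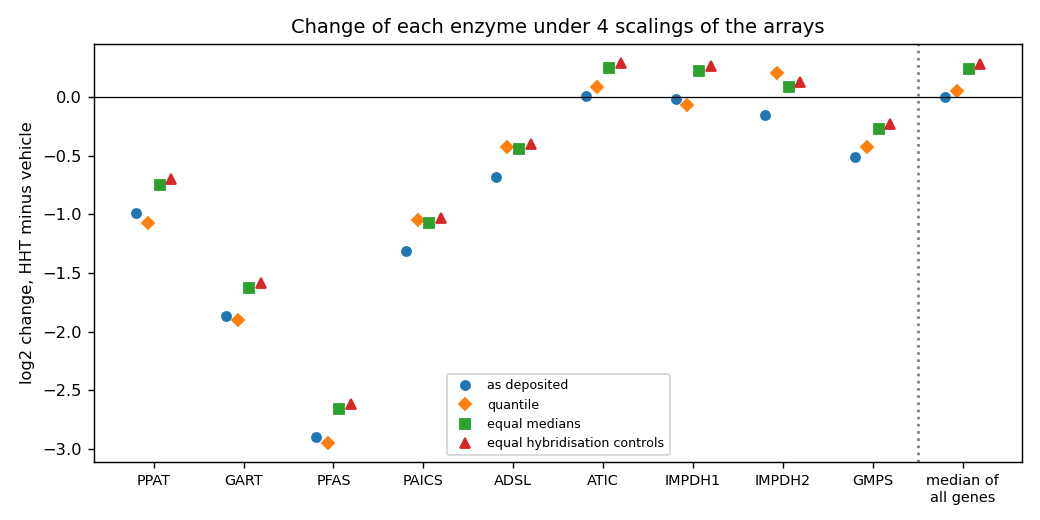
Log2 change, HHT minus vehicle (y axis), of each enzyme in the order of the pathway under 4 scalings, with the median of all genes at the right. PFAS, GART, PAICS, PPAT, ADSL and GMPS lie below 0 under all 4, while IMPDH1 and IMPDH2 lie on both sides of 0.

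The route starts from PRPP, made by the synthetases PRPS1 and PRPS2, and both fell. PRPS2 read 11.00, 11.06 and 10.79 in HHT, against 12.01, 12.19 and 12.27 in vehicle, and fell by 1.21 (SE 0.091, adjusted p = 1.96e-06 in limma). PRPS1 fell by 0.73 (SE 0.058), and a further probe set of each gene also fell. The associated proteins, which are known to bind and restrain these synthetases, were higher at their brightest probe sets. PRPSAP2 read 11.07, 11.03 and 11.02 in HHT, against 10.24, 10.54 and 10.22 in vehicle, and rose by 0.71 (SE 0.093, adjusted p = 1.01e-04 in limma). PRPSAP1 was called higher by 0.20 at that probe set (SE 0.061, adjusted p = 0.0213), a call lost without a variance trend (adjusted p = 0.107), at an adjusted p under 0.01 and without HHT replicate 2, HHT replicate 3 or vehicle replicate 3 (adjusted p = 0.0628, 0.073 and 0.0684). Its dim second probe set, with means of 4.10 in HHT and 6.55 in vehicle, passed the filter only through its vehicle arrays. Its call therefore supports nothing here. With each HHT array set to no less than the filter level of 4.80, it was 2.92-fold lower. From the mean of both probe sets PRPSAP1 was called lower (-1.13, adjusted p = 0.00357 in limma), a value that includes this dim probe set. No direction can be given for it.

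Of 4 tested enzymes that supply folate-borne carbon for the formyl transfers, 3 fell and 0 rose, beside 24.2% lower and 29.6% higher among all genes. MTHFD2, the mitochondrial dehydrogenase, fell by 1.12 (SE 0.060), SHMT2, which takes the carbon from serine, by 1.03 (SE 0.073) and MTHFD1, the cytosolic enzyme that makes the formyl donor itself, by 0.64 (SE 0.059). SHMT1 differed by -1.02 with overlapping groups (SE 0.45, adjusted p = 0.09 in limma). MTHFD1L lay below the filter.

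Salvage enzymes, which recover bases and nucleosides, fell in 6 of 8 cases and rose in 0, with a median of -0.44, beside 24.2% lower and 29.6% higher among all genes. PNP, which frees purine bases from nucleosides, read 10.43, 10.49 and 10.52 in HHT, against 11.77, 11.90 and 11.87 in vehicle, and fell by 1.37 (SE 0.067, adjusted p = 1.42e-07 in limma). MTAP, which recovers adenine from methylthioadenosine, fell by 0.93 (SE 0.093), and HPRT1, which rebuilds IMP and GMP from their bases, by 0.84 (SE 0.057). Of the other MTAP probe sets 1 fell and 3 were not called. The count depended on scaling: after rescaling to equal medians or to equal hybridisation controls, 3 fell and 1 rose. Of all genes, 12.7% and 12.8% were then called lower, and 37.3% and 41.6% higher.

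Of 10 tested genes that interconvert or break down purine nucleotides, 5 were called higher and 0 lower, with a median of 0.47. Over all genes 29.6% were called higher, and with equal medians or equal hybridisation controls 37.3% or 41.6%, where 5 and 6 of the 10 were. One of the 5, NT5E, passed the filter only through its HHT arrays, which leaves 4 others. AMPD3, which deaminates AMP back to IMP, read 11.31, 11.18 and 11.09 in HHT, against 10.22, 10.01 and 10.01 in vehicle, and rose by 1.11 (SE 0.089, adjusted p = 2.84e-06 in limma). NT5C, a nucleotidase that removes phosphate from nucleoside monophosphates, rose by 0.96 (SE 0.097). NT5E, the surface nucleotidase CD73, read 7.19, 7.34 and 6.89 in HHT, against 2.28, 5.32 and 5.19 in vehicle. Its vehicle mean lay below the filter level of 4.80, so its call supports nothing here. With each vehicle array set to no less than that level, the signal was 4.10-fold higher, and that of its second probe set 3.70-fold. Its fitted difference of 2.87 was 1.88 without vehicle replicate 1 and 1.20 with a pseudocount of 64. The other called genes were AMPD2 (0.80, SE 0.065) and ADSS1, the muscle-type paralogue of ADSS2. ADSS1 rose by 0.95 (SE 0.18, adjusted p = 0.00155 in limma). It was counted in this list and not among the synthesis enzymes, although ADSS acts in the branch to AMP.

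Nucleotide kinases fell in 4 of 8 cases and rose in 0, with a median of -0.20, beside 24.2% lower and 29.6% higher among all genes. AK4, a mitochondrial adenylate kinase, fell by 0.72 (SE 0.072), NME1, a nucleoside diphosphate kinase, by 0.70 (SE 0.069) and NME4, its mitochondrial relative, by 0.64 (SE 0.11). After rescaling, 2 (medians) or 3 (hybridisation controls) of the 8 were called higher, beside 37.3% and 41.6% of all genes. The remaining called fall, AK3 at -0.27 (SE 0.063), was about as large as the shift these rescalings gave (0.24 and 0.28). It therefore depends on the scaling.

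The parallel route to pyrimidines also fell, in 4 of 5 genes with a median of -0.998, beside 24.2% of all genes. CAD, which starts it, fell by 1.42 (SE 0.15), DHODH by 1.18 (SE 0.13) and CTPS1, which makes CTP, fell by 0.998 (SE 0.070). CTPS2, its paralogue, differed by 0.44 and was not called, but was called higher after either of these rescalings. Ribonucleotide reductase, which turns both kinds of nucleotide into DNA precursors, fell at RRM2 by 0.87 (SE 0.061) and at RRM1 by 0.71 (SE 0.064). RRM2B, the p53-induced small subunit, rose by 1.20 (SE 0.12), with 10.32, 10.31 and 10.13 in HHT, against 8.77, 9.22 and 9.15 in vehicle. At an unadjusted p under 0.05, 0 folate, salvage and pyrimidine genes were higher, 0 genes of interconversion and breakdown were lower, and 1 kinase (AK1) was higher. At that threshold 4344 of all 13572 genes were higher and 3730 lower. Differences between these lists were not tested.

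**Figure D4:**
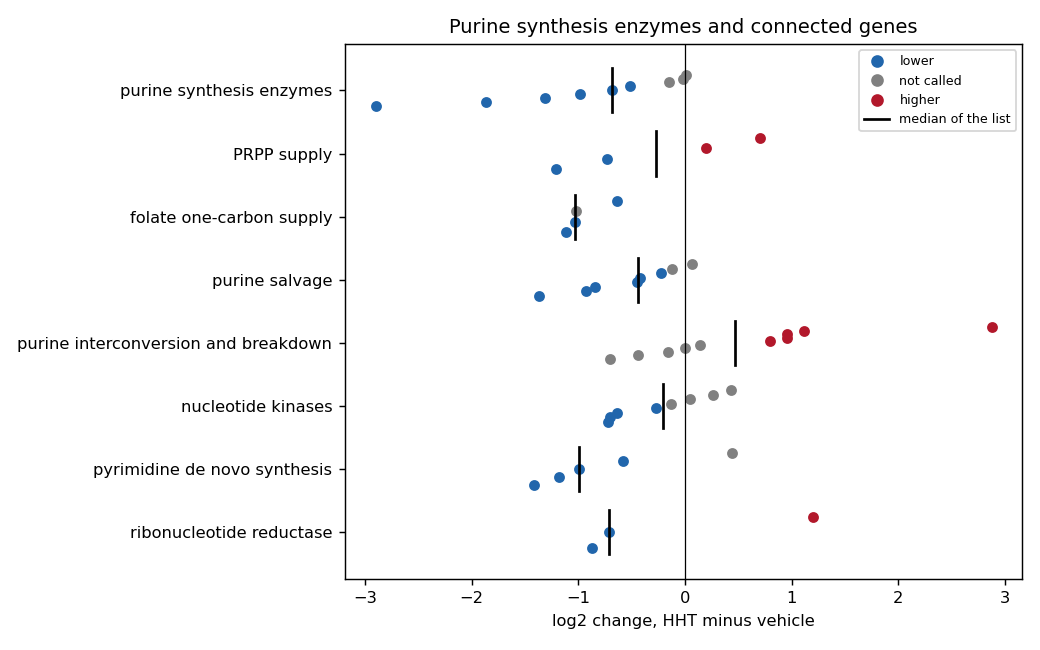
Log2 change, HHT minus vehicle (x axis), of each tested gene in the purine synthesis enzymes and in 7 connected lists, coloured by call, with the median of each list as a vertical bar. Called genes lie below 0 in the synthesis, folate, salvage, kinase and pyrimidine lists, above 0 in the list of interconversion and breakdown, and on both sides for PRPP supply and ribonucleotide reductase.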

How the data were processed

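Total RNA of the 6 samples was amplified and biotin labelled with a 3′ in vitro transcription kit, per the labels' protocols, and measured on 1-colour Affymetrix arrays. The authors deposited log2 signals for 54675 probe sets per array. Per the submitters' processing notes MAS5 was used (no version given), and the antilog signals had a trimmed mean of 500.06 to 500.07 on every array. No detection calls were used here. The 62 control probe sets and the 40% of the others with the lowest mean (level 4.80) were left out. Symbols came from the platform annotation, updated through Entrez IDs with RefSeq (41037 of 41091 single-gene probe sets). The annotation paired no probe set with ADSS2, so the planned comparison of GMPS with ADSS2 was not run.

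HHT was compared with vehicle in limma 3.58.1 (R 4.3.3, lmFit, eBayes with a variance trend, Benjamini-Hochberg over all probe sets tested). The fit was also run on simulated data with few changed probe sets and no difference in array scaling. That run does not bear on the scaling of these arrays. Pairs of enzymes were compared by exact permutation. Errors are SE for changes and SD over 3 arrays for means; the number of arrays limits the precision. All enzymes were named, with MYC and up to 3 genes per direction and connected list. SHMT1, CTPS2, AMPD2, ADSS1, AK1, AK3, MTHFD1L and the markers were named beyond that rule. The members and lists were chosen with earlier results of these data known. Same-numbered arrays of the groups deviated with correlations of 0.07, -0.01 and 0.05, so the numbers were not taken to pair them. Alternatives covered scaling, filter, pseudocount, variance prior, array weights, replicate block, threshold, mean of probe sets and leaving out each array.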

Additional observations from a re-analysis of the deposited data

How the results depend on the processing

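The count of enzymes that fell was 6 to 7 of 9 under all 18 alternatives. No enzyme rose as deposited; 1 was called higher after quantile normalization (IMPDH2) and 1 with equal hybridisation controls (ATIC). The replicate block gave 6 enzymes lower and changed no other call named in the text. Genes called lower over the whole array numbered 1720 at equal medians and 1741 at equal hybridisation controls, beside 3280. For PRPP supply, 1 gene was higher in place of 2 without a variance trend, at an adjusted p under 0.01 and from the mean of probe sets, and 1 to 2 without single arrays. At equal medians and equal hybridisation controls, salvage genes numbered 3 lower and 1 higher under both, pyrimidine genes 1 higher under both, and nucleotide kinases 2 and 3 higher. Of all genes, 12.7% and 12.8% were called lower there, and 37.3% and 41.6% higher. IMPDH1 minus IMPDH2 ranged from -0.22 to 0.40 without single arrays. The uncalled sign of ATIC turned with array weights (-0.0076), and its value ran from -0.021 to 0.032 without single arrays (-0.021 without HHT replicate 1, -0.00011 without vehicle replicate 3). That of IMPDH1 turned with equal medians (0.22), equal hybridisation controls (0.27), and without HHT replicate 2 (0.10), vehicle replicate 3 (0.20) or vehicle replicate 2 (0.076), in a range from -0.33 to 0.20 without single arrays. IMPDH2 turned with equal medians (0.084), equal hybridisation controls (0.13) and quantile normalization (0.20). PPAT probe set 235833_at turned with equal medians (0.13), quantile normalization (0.045), equal hybridisation controls (0.17), and without HHT replicate 3 (0.14) or vehicle replicate 1 (0.0076), in a range from -0.35 to 0.14 without single arrays. PRPSAP1 turned to a called fall of -1.13 (adjusted p = 0.00357 in limma) from the mean of its 2 probe sets, which moved in opposite directions. The dimmer of these had an HHT mean below the filter level. For the rest the cause was not tested.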
